A study of Mus musculus with 10 samples.

Results

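The genes described here make, break down or carry out the signal of cyclic AMP (cAMP) in the cerebral cortex of *Crtc1*-/- mice. The rule that selects them uses gene names and no measured values, although earlier results of these data were known when the list was drawn up. The list holds adenylyl cyclases, phosphodiesterases, subunits and inhibitors of protein kinase A (PKA), anchoring proteins, Epac proteins, inhibitors of protein phosphatase 1 and the G protein subunit *Gnal*. Each gene was read by its brightest probe set among those whose annotation names that gene alone, a probe set being the group of oligonucleotides on the array that yields 1 value. Of 39 listed genes, 38 were measured out of 18193 genes on the array. *Rapgef4*, which encodes Epac2, had no such probe set in the annotation used and was not analysed here.

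Both groups were untreated adult female C57BL/6N mice, 2 months of age, with 5 WT mice and 5 Crtc1KO littermates, written *Crtc1*-/- here. Per the study's methods, mice were isolated from their cage mates some time after weaning and before use. The knockout was not restricted to a cell type or to the cortex. RNA of the cerebral cortex, a tissue of mixed cell types, was read on Affymetrix whole-genome mouse arrays, and each value is on the log2 scale. Array medians spanned 0.03 and pairs of arrays correlated between 0.994 and 0.998 over probe sets. *Crtc1* itself read 9.51 to 9.86 in WT mice against 5.96 to 6.60 in *Crtc1*-/- mice, a log2 fold change of -3.32 (adjusted p = 8.35e-08 by limma).

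cAMP is made from ATP by adenylyl cyclases, which Gs and Golf proteins stimulate and some of which respond to calcium, and phosphodiesterases end the signal. cAMP frees the catalytic subunits of PKA from their regulatory subunits, anchoring proteins hold the kinase near its substrates, and Epac proteins form a second, kinase-independent branch. In neurons the rise of cAMP and calcium sends CRTC1 into the nucleus, where it acts as a coactivator of CREB. The genes that set the level of cAMP thus act upstream of the factor that the knockout removes. Not every listed gene does, since Epac proteins lie on their own branch. The comparison asks whether the mRNA of the listed genes differed when that factor was absent.

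CREB binds the cAMP response element, whose full form is TGACGTCA and whose shorter forms are TGACGT and TGACG. The 300 bases from 250 before to 50 after the start of each RefSeq transcript model (GRCm38.p6) were searched for these letters on both strands, so that a full element also counts for the shorter forms. Of the listed genes, 30 had at least 1 such window. The full element lay in a window of 1 of the 30 genes (3.33%), *Prkar1a*, against 2.03% of 27025 genes. TGACGT lay in 5 of 30 (16.7%), against 8.37% of genes, and TGACG in 14 of 30 (46.7%), against 23.0%. The listed genes have more windows per gene than the average gene. Counted by window, TGACGT lay in 6 of 69, against 7.51% of 32851 windows, and TGACG in 16 of 69, against 20.8%. Both shares are near those of all windows. Stretches are printed for the 5 genes with TGACGT and for *Pde2a* and *Prkar1b*, the genes whose groups did not overlap. They are in the direction of transcription, with the element in capitals in either of its orientations (ACGTCA and CGTCA are TGACGT and TGACG on the other strand). Such a match describes the letters in the window and is not evidence of binding.
Prkar1a, chr11:109650889-109650918, plus strand: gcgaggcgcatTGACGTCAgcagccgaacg
Pde2a, chr7:101450523-101450549, plus strand: gggcgcaggagCGTCAcggctgctgca
Prkar1b, chr5:139150035-139150061, minus strand: agagggcggagTGACGggcaggaggac
Adcy9, chr16:4420506-4420533, minus strand: ggacccggcggTGACGTgcgcgggccgc
Pde4a, chr9:21184039-21184066, plus strand: ggcacagctcgACGTCAggctggggagg
Pde4b, chr4:102421509-102421536, plus strand: gatttggctgcACGTCAattttctcatc
Rapgef3, chr15:97767841-97767868, minus strand: cttgaacccacTGACGTagtctcgggta

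None of the 38 genes passed the adjusted threshold of 0.05 by limma, where 0.764% of all genes did (0.456% lower and 0.308% higher in *Crtc1*-/- mice). At an unadjusted p under 0.05 there were 6 of 38 (15.8%), of which 2 were lower and 4 higher, against 9.86% of all genes (5.53% lower and 4.33% higher). That count was 3 without WT mouse 2, and 4 without WT mouse 3 or *Crtc1*-/- mouse 1. It was 9 with a trended and robust variance prior or with no moderation, and 4 of 34 with cross-hybridizing probe sets left out. The share of all genes at this p is not given for these settings. Calls over all genes at the adjusted threshold moved as well, from 83 lower and 56 higher in the main fit. They were 58 and 35 without WT mouse 2, 148 and 88 with the trended prior, and 49 and 26 without moderation. The groups did not overlap for 2 of 38 (5.26%), *Pde2a* and *Prkar1b*, against 3.14% of all genes. The log2 fold change (*Crtc1*-/- minus WT) was above 0 for 20 genes and below 0 for 18. Its median was 0.0019, beside -0.0030 over all genes, and the median size without sign was 0.064, beside 0.051 over all genes.

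The differences were small for most of the list. The log2 fold change lay within 0.1 of 0 for 28 genes, within 0.2 for 34 and within 0.5 for all 38 measured genes. The 95% confidence interval lay within 0.1 of 0 for 2 genes, within 0.2 for 22, within 0.3 for 33 and within 0.5 for 37. The interval that reached past 0.5 was that of *Pde10a*, whose lower limit was -0.70. With 5 arrays a group, differences of the size of these limits were not detectable for some of the genes, so a missed threshold does not show equal levels.

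**Figure D1:**
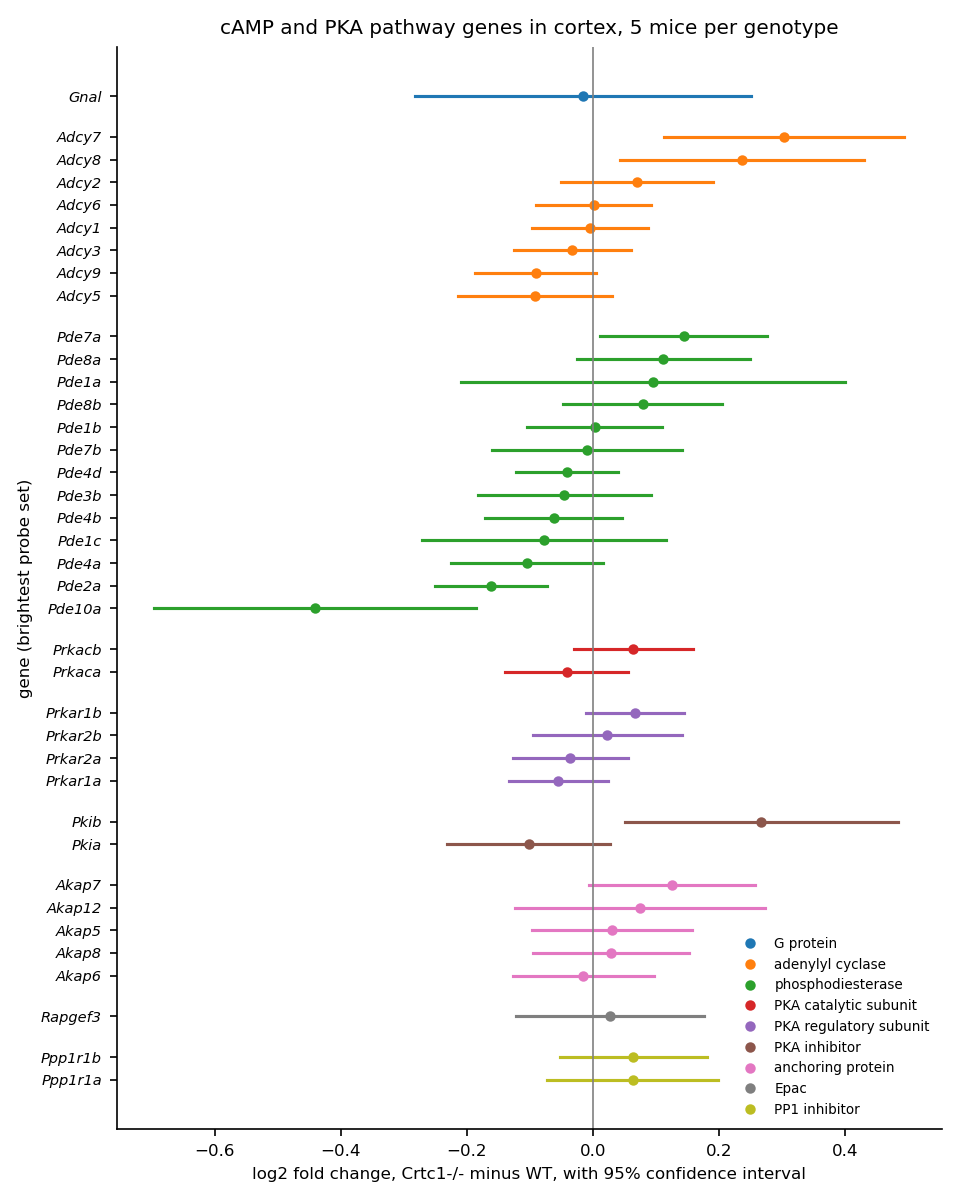
Difference in log2 value (x axis), *Crtc1*-/- minus WT, for each of the 38 measured genes, with 95% confidence intervals from limma and genes grouped by role (y axis, colors), 5 mice per genotype. *Pde10a* and *Pde2a* lie farthest to the left and *Adcy7*, *Pkib* and *Adcy8* farthest to the right, and the remaining genes lie within 0.15 of 0.

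At the head of the pathway, *Gnal* encodes the alpha subunit of Golf, which couples receptors to adenylyl cyclase. It read 9.96, 10.43, 10.66, 10.53 and 10.35 in WT mice and 10.47, 10.57, 10.12, 10.41 and 10.28 in *Crtc1*-/- mice. The range of the *Crtc1*-/- mice lay inside that of the WT mice, and the log2 fold change was -0.02 (95% confidence interval -0.28 to 0.25). A second *Gnal* probe set, 1439957_at, read 9.90, 9.76, 9.56, 9.61 and 9.62 in WT mice and 9.51, 9.49, 9.54, 9.49 and 9.48 in *Crtc1*-/- mice. Here every *Crtc1*-/- mouse lay below every WT mouse, with a log2 fold change of -0.19 that did not pass over all probe sets (unadjusted p = 0.0117, adjusted p = 0.482, limma). The third probe set, which is dim (its mean lies below the median of all probe sets), had 0.005, so the probe sets of this gene disagreed.

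The 8 adenylyl cyclases were divided evenly, with 4 above 0 and 4 below 0 and a median of -0.002. *Adcy7* and *Adcy8* had the largest values. *Adcy7*, a cyclase known from immune cells and microglia, read 6.399, 6.02, 5.84, 6.18 and 6.13 in WT mice and 6.38, 6.39, 6.37, 6.54 and 6.41 in *Crtc1*-/- mice. WT mouse 1 alone reached into the *Crtc1*-/- range. The means were 6.11 ± 0.21 and 6.42 ± 0.07 (SD, n = 5 each), a log2 fold change of 0.30 (standard error, SE, 0.09, adjusted p = 0.194, limma). The other *Adcy7* probe sets, both dim, lay the same way, with log2 fold changes of 0.15 and 0.17.

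*Adcy8* encodes a cyclase that calcium and calmodulin stimulate. It read 6.75, 6.58, 6.65, 6.72 and 7.06 in WT mice and 7.17, 6.93, 6.84, 7.03 and 6.97 in *Crtc1*-/- mice. Of the *Crtc1*-/- mice, 1 lay above all WT mice, and WT mouse 5 lay among the *Crtc1*-/- values. The means were 6.75 ± 0.19 and 6.99 ± 0.12, a log2 fold change of 0.24 (SE 0.09, adjusted p = 0.375, limma). *Adcy1*, the other cyclase of this calcium-stimulated kind in the forebrain, had a log2 fold change of -0.005 (95% confidence interval -0.10 to 0.09).

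*Adcy9*, a cyclase that is little sensitive to forskolin, lay slightly lower in *Crtc1*-/- mice. It read 10.05, 9.997, 10.03, 9.87 and 10.01 in WT mice and 9.94, 9.92, 9.88, 9.86 and 9.91 in *Crtc1*-/- mice, and WT mouse 4 alone lay within the *Crtc1*-/- range. The means were 9.99 ± 0.07 and 9.90 ± 0.03, a log2 fold change of -0.09 (SE 0.04, adjusted p = 0.535, limma), and all 4 of its probe sets were below 0. *Adcy5*, the main cyclase of striatal neurons, had a log2 fold change of -0.09 (95% confidence interval -0.21 to 0.03), and -0.043 without WT mouse 1, which read 9.25 where the other WT mice read 8.97 to 9.05. For the other cyclases the log2 fold changes were 0.07 for *Adcy2*, -0.03 for *Adcy3*, the cyclase of olfactory neurons and neuronal cilia, and 0.001 for *Adcy6*.

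Among the 13 phosphodiesterases, 8 were below 0 and 5 above 0, with a median of -0.04. The pair with the smallest p of all listed genes was in this group. *Pde2a* encodes an enzyme that cGMP stimulates and that hydrolyses cAMP and cGMP. It read 12.24, 12.24, 12.17, 12.12 and 12.12 in WT mice and 11.97, 12.02, 12.01, 12.04 and 12.03 in *Crtc1*-/- mice. Every *Crtc1*-/- mouse lay below every WT mouse. The means were 12.18 ± 0.06 and 12.02 ± 0.03 (SD, n = 5 each), a log2 fold change of -0.16 (SE 0.04, 95% confidence interval -0.25 to -0.07) or a ratio of 0.894 (*Crtc1*-/- over WT), with adjusted p = 0.131 by limma. With a trended and robust variance prior, the adjusted p was 0.0120, the only setting of those tried in which *Pde2a* passed.

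The 3 probe sets of *Pde2a* all lay below 0. Probe set 1452202_at read 10.95, 10.97, 10.84, 10.80 and 10.80 in WT mice and 10.58, 10.59, 10.60, 10.76 and 10.62 in *Crtc1*-/- mice. These groups did not overlap either, and the log2 fold change was -0.24 (SE 0.06, adjusted p = 0.154 over all probe sets, limma). The remaining probe set, 1447708_x_at, gave -0.11 with overlapping groups. The suffixes _s_at and _x_at mark probe sets that can read more than 1 transcript or related sequences, and 1452202_at carries no such mark.

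*Pde10a* encodes a phosphodiesterase of cAMP and cGMP that is best known from the medium spiny neurons of the striatum. It read 8.93, 8.80, 8.75, 9.34 and 9.03 in WT mice and 8.30, 8.44, 8.80, 8.65 and 8.46 in *Crtc1*-/- mice. Of the *Crtc1*-/- mice, 4 lay below all WT mice, and *Crtc1*-/- mouse 3 lay within the WT range. The means were 8.97 ± 0.23 and 8.53 ± 0.20, a log2 fold change of -0.44 (SE 0.12, 95% confidence interval -0.70 to -0.19) or a ratio of 0.737, the largest difference of the list, with adjusted p = 0.151 by limma.

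Probe set 1458499_at of *Pde10a* read 6.73, 6.71, 6.77, 7.19 and 6.99 in WT mice and 6.11, 6.39, 6.57, 6.62 and 6.38 in *Crtc1*-/- mice. There the groups did not overlap, and the log2 fold change was -0.47 (SE 0.11, adjusted p = 0.187 over all probe sets, limma). For probe set 1419389_at it was -0.25 with overlapping groups, and the dim probe sets 1419390_at and 1432490_a_at had 0.01 and -0.09.

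Of the phosphodiesterases above 0, *Pde7a* and *Pde8a*, both specific for cAMP, had the largest values. *Pde7a* read 7.69, 7.73, 7.89, 7.72 and 7.80 in WT mice and 8.02, 7.82, 7.90, 7.78 and 8.02 in *Crtc1*-/- mice. Of the *Crtc1*-/- mice, 3 lay above all WT mice. The means were 7.77 ± 0.08 and 7.91 ± 0.11, a log2 fold change of 0.14 (SE 0.06, adjusted p = 0.446, limma), and its 7 probe sets all lay above 0, between 0.04 and 0.14.

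*Pde8a* read 7.98, 7.83, 7.98, 7.90 and 8.06 in WT mice and 7.96, 8.01, 8.25, 8.002 and 8.09 in *Crtc1*-/- mice, so that the groups overlapped widely. The means were 7.95 ± 0.09 and 8.06 ± 0.12, a log2 fold change of 0.11 (SE 0.06, adjusted p = 0.636, limma), and 0.064 without *Crtc1*-/- mouse 3. On its second, dimmer probe set the value was 0.38 (unadjusted p = 0.0415, adjusted p = 0.669 over all probe sets, limma). The related *Pde8b* had a log2 fold change of 0.08.

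The 3 listed genes of the PDE4 family, cAMP-specific enzymes that rolipram inhibits, all lay slightly below 0. *Pde4a* read 7.96, 7.99, 7.94, 7.78 and 7.91 in WT mice and 7.72, 7.87, 7.89, 7.86 and 7.71 in *Crtc1*-/- mice. WT mouse 4 lay among the *Crtc1*-/- values. The means were 7.92 ± 0.08 and 7.81 ± 0.09, a log2 fold change of -0.10 (SE 0.06, adjusted p = 0.596, limma). For *Pde4b* the log2 fold change was -0.06 (95% confidence interval -0.17 to 0.05), and for *Pde4d* it was -0.04 (-0.12 to 0.04).

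The calcium- and calmodulin-stimulated enzymes had log2 fold changes of 0.10 for *Pde1a*, 0.003 for *Pde1b* and -0.08 for *Pde1c*. *Pde1a* had the widest spread of any listed gene, with 9.49 in WT mouse 1, 10.03 to 10.38 in the other WT mice and 10.11 to 10.35 in *Crtc1*-/- mice. *Pde3b*, which cGMP inhibits, had a log2 fold change of -0.05. For *Pde7b*, known from the striatum, it was -0.01 on the brightest probe set and -0.13 and -0.32 on the dim ones.

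**Figure D2:**
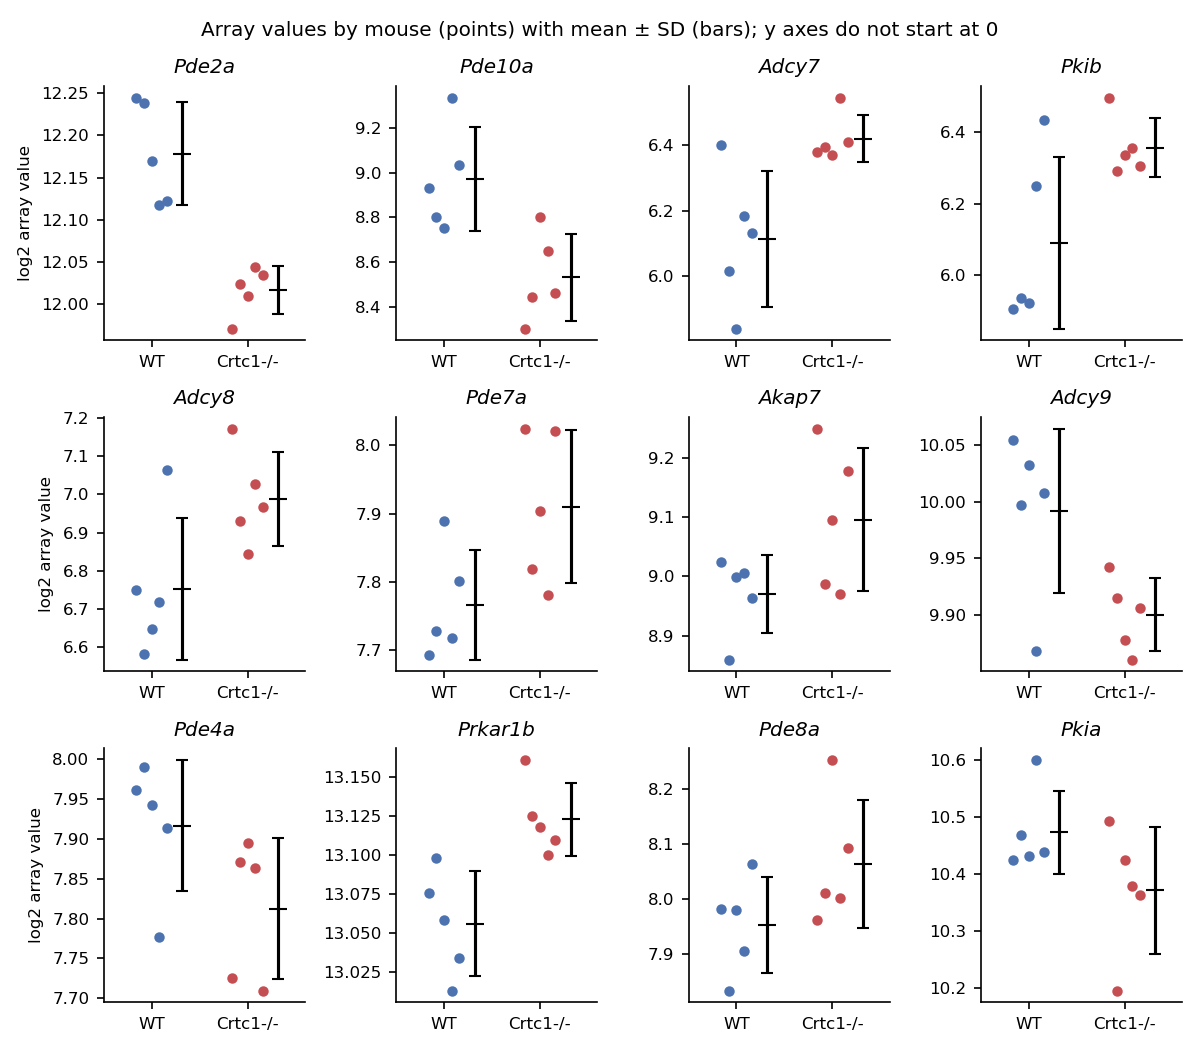
Log2 array values (y axis, not from 0) by genotype (x axis) for 12 genes, the pair whose groups did not overlap and the next genes by p, 1 point per mouse with bars for the mean ± SD. The WT and *Crtc1*-/- points are apart for *Pde2a* and *Prkar1b* and share part of their range in the other panels.

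The subunits of PKA had narrow intervals. Of its catalytic subunits, *Prkaca* had a log2 fold change of -0.04 (95% confidence interval -0.14 to 0.06) and *Prkacb* 0.06 (-0.03 to 0.16). The *Prkaca* value comes from a probe set with the suffix _x_at. Its other probe set, 1450519_a_at, brighter than 89.7% of probe sets, had 0.04 (-0.09 to 0.17), so the sign of *Prkaca* differed between its probe sets. *Prkacb* read 11.72 to 11.92 in WT mice against 11.89 to 11.92 in *Crtc1*-/- mice. The intervals of the 4 regulatory subunits reached from -0.13 to 0.15.

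*Prkar1b*, the neuronal regulatory subunit of type I, read 13.08, 13.10, 13.06, 13.01 and 13.03 in WT mice and 13.16, 13.13, 13.12, 13.10 and 13.11 in *Crtc1*-/- mice. Its groups did not overlap, although WT mouse 2 and *Crtc1*-/- mouse 4 both read 13.10 after rounding. The means were 13.06 ± 0.03 and 13.12 ± 0.02, a log2 fold change of 0.07 (SE 0.04, adjusted p = 0.599, limma). Its other 4 probe sets overlapped between groups, with 3 of them above 0 and 1 at -0.0006. This value lay near the top of the array's range, brighter than 99.9% of probe sets, and the probe set carries the suffix _x_at.

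*Prkar1a*, whose window holds the full element, had a log2 fold change of -0.05 (95% confidence interval -0.13 to 0.02), with all 3 probe sets between -0.06 and -0.05. It read 11.76 to 11.82 in WT mice against 11.69 to 11.77 in *Crtc1*-/- mice, and 3 of the *Crtc1*-/- mice lay below all WT mice. The type II subunits *Prkar2a* and *Prkar2b* had log2 fold changes of -0.04 and 0.02. The genes with the shorter element TGACGT in a window, *Adcy9*, *Pde4a*, *Pde4b* and *Rapgef3*, had log2 fold changes of -0.09, -0.10, -0.06 and 0.03. Genes with only TGACG lay on both sides of 0. Above it were *Adcy7* (0.30), *Pde1a* (0.10), *Pde8a* (0.11), *Pde8b* (0.08), *Prkacb* (0.06) and *Prkar1b* (0.07). Below it were *Pde2a* (-0.16), *Prkaca* (-0.04) and *Prkar2a* (-0.04).

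The PKA inhibitors lay on opposite sides of 0. *Pkib* encodes a small protein that blocks the catalytic subunit. It read 5.91, 5.94, 5.92, 6.25 and 6.43 in WT mice and 6.497, 6.29, 6.34, 6.36 and 6.31 in *Crtc1*-/- mice. WT mouse 5 lay among the *Crtc1*-/- values, and the other WT mice lay below every *Crtc1*-/- mouse. The means were 6.09 ± 0.24 and 6.36 ± 0.08, a log2 fold change of 0.27 (SE 0.10, adjusted p = 0.368, limma), and the second probe set had 0.21.

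*Pkia*, the inhibitor best known from brain, read 10.42, 10.47, 10.43, 10.60 and 10.44 in WT mice and 10.49, 10.19, 10.42, 10.38 and 10.36 in *Crtc1*-/- mice. Of the *Crtc1*-/- mice, 3 lay below all WT mice. The means were 10.47 ± 0.07 and 10.37 ± 0.11, a log2 fold change of -0.10 (SE 0.06, adjusted p = 0.654, limma), and the second probe set had -0.12. Without *Crtc1*-/- mouse 2 the value on the brightest probe set was -0.058.

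Of the 5 anchoring proteins, 4 lay above 0 and *Akap6* at -0.02. *Akap7*, which binds PKA near ion channels, read 9.02, 8.86, 8.999, 9.01 and 8.96 in WT mice and 9.25, 8.99, 9.09, 8.97 and 9.18 in *Crtc1*-/- mice. Of the *Crtc1*-/- mice, 3 lay above all WT mice and the other two among them. The means were 8.97 ± 0.07 and 9.10 ± 0.12, a log2 fold change of 0.13 (SE 0.06, adjusted p = 0.535, limma). *Akap5*, the postsynaptic anchor of PKA and calcineurin, had a log2 fold change of 0.03 (95% confidence interval -0.10 to 0.16), *Akap8*, a nuclear anchor, 0.03, and *Akap12*, also called gravin, 0.07.

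Outside the kinase, *Rapgef3*, which encodes Epac1, a cAMP-activated exchange factor for Rap proteins, had a log2 fold change of 0.03 (95% confidence interval -0.12 to 0.18). The inhibitors of protein phosphatase 1 that PKA switches on both had 0.06. They are *Ppp1r1a*, inhibitor 1, with a 95% confidence interval of -0.07 to 0.20, and *Ppp1r1b*, which encodes DARPP-32 of striatal neurons, with -0.05 to 0.18.

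Over all 105 probe sets of these genes, none passed the adjusted threshold over all probe sets by limma (smallest adjusted p = 0.154), where 0.302% of all probe sets did. At an unadjusted p under 0.05 there were 14 (13.3%), against 7.19% of all probe sets. The groups did not overlap for 5 of the 105, those of *Pde2a*, *Prkar1b*, *Pde10a* and *Gnal* given above. That share was not counted over all probe sets, and over genes on their brightest probe set it was 3.14%. Of 29 genes with more than 1 probe set, 15 had all of theirs on the same side of 0. Several of the 15 have only 2 probe sets, and the share over all genes was not counted.

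**Figure D3:**
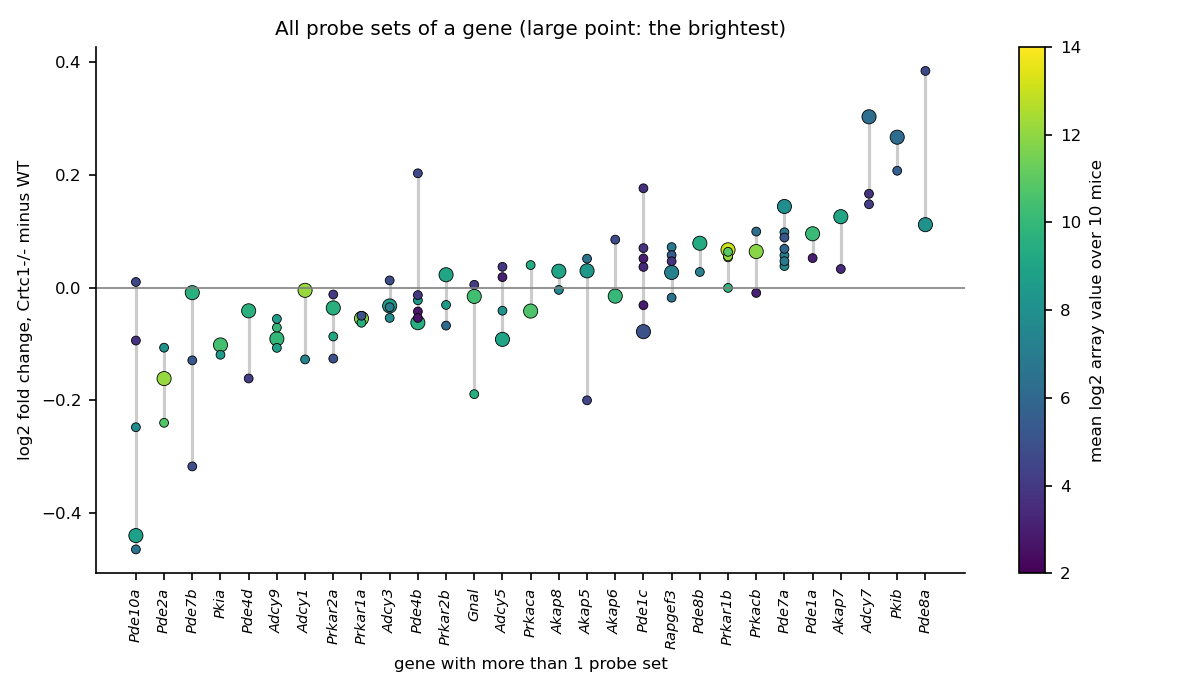
Difference in log2 value (y axis), *Crtc1*-/- minus WT, for every probe set of the 29 genes with more than 1 (x axis, ordered by the median of their probe sets), with the brightest as the large point and the mean log2 array value as color. The probe sets of *Pde2a*, *Adcy7* and *Pde7a* lie on one side of 0, while those of *Pde10a* range from -0.47 to 0.01 and those of *Gnal* from -0.19 to 0.005.

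Genes of the pathway that are not on the list were read in the same fit. Of 32 other genes, which include further G protein subunits, cyclases, anchoring proteins, HCN channels that bind cAMP and catalytic subunits of protein phosphatase 1, 29 were measured. None passed the adjusted threshold by limma, where 0.764% of all genes did. An unadjusted p under 0.05 was found for 3 of the 29, against 9.86% of all genes. Of the 29, 9 lay above 0 and 20 below 0, with a median of -0.02. The smallest p belonged to *Akap13*, an anchoring protein of PKA (log2 fold change -0.27, adjusted p = 0.206, limma), and to *Gnaz*, a G protein subunit that inhibits cyclases (-0.13, adjusted p = 0.258, limma).

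Of 18 receptors that couple to Gs, 11 were measured. Of the 11, 1 passed as higher in *Crtc1*-/- mice, where 0.308% of all genes did. This was *Htr7*, a serotonin receptor. It read 5.95, 5.90, 5.90, 5.95 and 6.00 in WT mice and 6.30, 6.09, 6.22, 6.29 and 6.31 in *Crtc1*-/- mice. The groups were apart, and the log2 fold change was 0.30 (SE 0.05, adjusted p = 0.0150, limma). None of the receptors passed in the lower direction, where the nearest were *Gpr12* (-0.20, adjusted p = 0.288, limma) and *Gpr3* (-0.23, adjusted p = 0.508, limma), orphan receptors that raise cAMP without added ligand. The call on *Htr7* was lost in the replicate block fit, with the oligodendrocyte or hippocampus marker mean as a covariate, and with probe sets averaged by gene. *Htr7* has 2 probe sets, and the values above are those of the brightest alone.

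In whole cortex, fewer cells of a type and less RNA per cell cannot be told apart. Several listed genes, *Pde10a*, *Adcy5*, *Gnal*, *Pde7b* and *Ppp1r1b* among them, are known for their high expression in the striatum, which lies beneath the cortex. Of 15 markers of striatal neurons, 13 were measured, 6 above 0 and 7 below 0. Their summed signal, on the log2 scale, read 11.68 to 12.03 in WT mice against 11.81 to 11.95 in *Crtc1*-/- mice (exact permutation test, two-sided, p = 0.595, adjusted over 10 marker lists p = 0.813). Of these markers, *Scn4b*, a sodium channel subunit, was higher in *Crtc1*-/- mice (log2 fold change 0.48, adjusted p = 0.0295, limma), and *Rasd2*, a small GTPase, had -0.41 (adjusted p = 0.287, limma).

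With the mean of the striatal markers as a covariate, the log2 fold change of *Pde10a* was -0.45 (SE 0.08, adjusted p = 0.0309, limma), the only setting of those tried in which it passed. The log2 fold change of *Pde2a* in that fit was -0.16 (adjusted p = 0.167, limma).

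**Figure D4:**
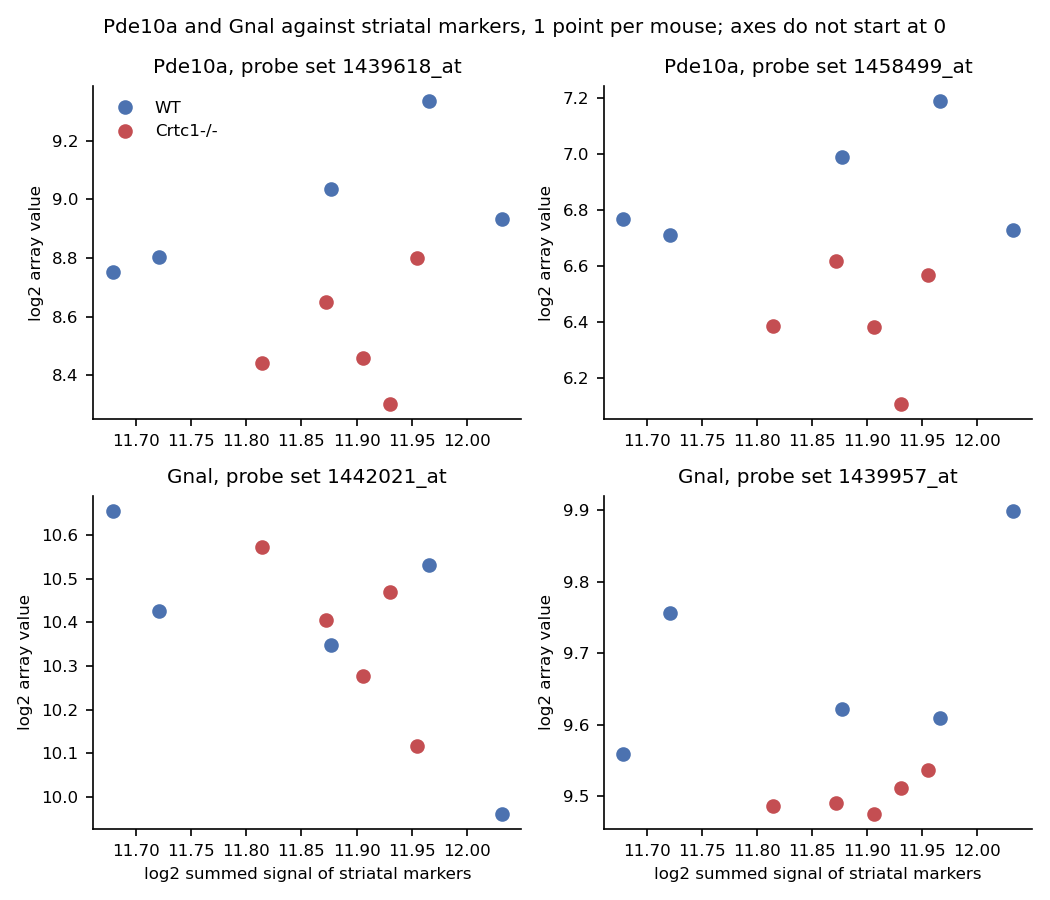
Log2 array value (y axis) of 2 probe sets each of *Pde10a* and *Gnal* against the log2 summed signal of 13 striatal markers (x axis), 1 point per mouse, axes not from 0. For each gene the panels show the brightest probe set and another drawn because its *Crtc1*-/- points lie below all WT points (1458499_at and 1439957_at). The remaining probe sets of both genes, whose groups overlap, are not shown. The *Crtc1*-/- points lie between 11.81 and 11.95 on the x axis, inside the WT range of 11.68 to 12.03.

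Markers of other tissues and cells were summed in the same way. The summed signal of 10 measured hippocampus markers of 11 read 10.67 to 10.96 in WT mice against 10.57 to 10.69 in *Crtc1*-/- mice (exact permutation test, p = 0.0159, adjusted p = 0.0794), and 2 of them were lower by limma, *Fibcd1* (adjusted p = 0.0092) and *Fam163b* (adjusted p = 0.0188). That of 11 oligodendrocyte markers of 12 read 14.65 to 14.85 in WT mice against 14.82 to 15.00 in *Crtc1*-/- mice (exact permutation test, p = 0.0397, adjusted p = 0.0992), with all 11 above 0. Thalamus markers, 8 of 8 measured, read between 10.82 and 10.98 and between 10.91 and 11.12 (exact permutation test, adjusted p = 0.0794). Markers of cortical excitatory neurons, 9 of 10 measured, of the labelled tissue, read between 12.76 and 12.89 and between 12.71 and 12.79 (exact permutation test, adjusted p = 0.0794). For markers of interneurons, astrocytes, microglia, vessels and meninges the adjusted p was 0.556 or more (exact permutation test).

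With the hippocampus marker mean as a covariate, none of the 38 genes had an unadjusted p under 0.05 by limma. The share of all genes at that p was not counted for this fit. The log2 fold change was then -0.12 for *Pde2a* (SE 0.07), -0.37 for *Pde10a* (0.21), 0.23 for *Adcy7* (0.16), 0.15 for *Pkib* (0.18) and 0.02 for *Adcy8* (0.14). With the oligodendrocyte marker mean in its place, it was -0.11 for *Pde2a* (SE 0.05), -0.62 for *Pde10a* (0.13), 0.36 for *Adcy7* (0.11) and 0.14 for *Pkib* (0.12). The standard errors were wider in these fits. The mean log2 value of the hippocampus markers differed by -0.14 (exact permutation test, p = 0.00794, the smallest this test can give here). Over all genes, 6 lower and 4 higher passed with this covariate, against 83 and 56 without it. The covariate thus largely follows genotype, and this fit cannot set the 2 apart for the listed genes. The part of cell and tissue composition in the values of the listed genes was not tested further.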

How the data were processed

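The authors made labelled cRNA from 300 ng total RNA per sample, ran array quality control in the RACE software and left out arrays of poor quality. The deposited values, 1 per probe set and array, are on the log2 scale and had been normalized by the authors, with a method not given in the sources used here. They were used as deposited, without 64 control probe sets and with no filter on dim probe sets. Gene names came from the annotation supplied with the values. Where its gene identifier matched a RefSeq gene, the RefSeq symbol was used. In R 4.3.3, limma 3.58.1 (lmFit, then eBayes) compared *Crtc1*-/- with WT over 18193 genes (brightest probe set per gene), and over 45037 probe sets, with Benjamini-Hochberg adjustment and a threshold of 0.05. Marker sums used two-sided exact permutation tests over 10 lists. The fit was tested on simulated arrays. Precision is limited by the 5 arrays in each group, and no detection calls were used. Per the study's methods, experiments combined several batches of mice; which mouse belonged to which batch was not given in the sources used here, so batch was not tested.

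The genes and lists were chosen with earlier results of these data known. Every listed gene is named, and values by mouse are given for genes whose groups did not overlap and the next by p, up to 12; the values of *Gnal* by mouse were added after they were seen. Of the other lists, genes past the threshold and up to 2 more are named. Same-numbered mice did not deviate together (correlations of their deviations between -0.26 and 0.06), so the replicate numbers were not used as pairs.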

Additional observations from a re-analysis of the deposited data

Results flagged for a closer look

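Within each genotype, a mouse that stood apart from the other four of its group was sought for every listed gene by Dixon's criterion (a gap over the group's range above 0.71 for 5 samples). Of 76 groups of values, 8 held such a mouse. The criterion flags about 1 in 20 groups of independent, normally distributed values. These groups share the same mice, and the share over all genes was not counted, so the count is not read as particular to the listed genes. In WT mice, mouse 4 read 12.03 for *Adcy1*, below 12.16 to 12.21 in the others, and 10.60 for *Pkia*, above 10.42 to 10.47. WT mouse 2 read 9.45 for *Pde4b*, below 9.55 to 9.58. WT mouse 3 read 9.54 for *Prkar2a*, below 9.60 to 9.61. In *Crtc1*-/- mice, mouse 4 read 6.54 for *Adcy7*, above 6.37 to 6.41. *Crtc1*-/- mouse 2 read 10.35 for *Pde1a*, above 10.11 to 10.14, and 9.65 for *Pde4d*, above 9.56 to 9.58. *Crtc1*-/- mouse 1 read 9.44 for *Prkar2a*, below 9.56 to 9.60. With each mouse left out in turn, the log2 fold change ranged from -0.034 to 0.010 for *Adcy1*, 0.23 to 0.37 for *Adcy7*, -0.049 to 0.17 for *Pde1a*, -0.085 to -0.038 for *Pde4b*, -0.058 to -0.028 for *Pde4d*, -0.050 to -0.0082 for *Prkar2a* and -0.13 to -0.058 for *Pkia*.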

How the results depend on the processing

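Each result was recomputed under 23 alternatives, namely other normalizations, filters, variance priors, array weights, the replicate block, marker means as covariates, probe sets averaged by gene, adjustment over all probe sets and each array left out. The count of listed genes that passed as lower went from 0 to 1 with a trended and robust variance prior (*Pde2a*) and to 1 with the striatal covariate (*Pde10a*), and it was 0 in the others. The count of receptors coupled to Gs that passed as higher went from 1 to 0 with the replicate block, with the oligodendrocyte and hippocampus covariates and with probe sets averaged by gene. The replicate block left 36 genes lower and 26 higher over all genes, against 83 and 56 without it, and changed no call of a listed gene. Over all genes, the counts lower and higher were 148 and 88 with the trended prior, 49 and 26 without moderation, 57 and 37 with adjustment over all probe sets, 32 and 22 with the oligodendrocyte and 6 and 4 with the hippocampus covariate, and 55 to 69 and 33 to 51 with an array left out. The lowest of these counts were 55 lower without *Crtc1*-/- mouse 2 or 3, and 33, 35 and 37 higher without WT mouse 3, 2 and 4. The cause of these changes was not tested.

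Of 38 genes, 18 had the same sign in every alternative run, and 57 of 869 values turned sign, none of them past the threshold. With arrays centred on their medians, the sign turned to give -0.0031 for *Adcy6* and -0.0016 for *Pde1b*. With striatal markers as a covariate, the sign turned to give -0.00050 for *Pde1b*. With oligodendrocyte markers, the sign turned to give 0.021 for *Adcy1*, 0.0033 for *Adcy3*, -0.11 for *Pde1a*, -0.050 for *Pde1b*, 0.019 for *Pde3b*, 0.024 for *Pde7b*, -0.037 for *Prkar2b*, -0.0032 for *Akap5*, 0.013 for *Akap6* and -0.00069 for *Akap8*. With hippocampus markers, the sign turned to give 0.029 for *Adcy3*, -0.0041 for *Adcy6*, -0.084 for *Pde1b*, -0.0044 for *Pde8a*, -0.10 for *Pde8b*, 0.022 for *Prkar2a*, -0.027 for *Prkar2b*, -0.069 for *Akap5*, -0.038 for *Akap7*, -0.033 for *Akap8*, -0.023 for *Akap12*, -0.042 for *Rapgef3* and 0.15 for *Gnal*. With probe sets averaged by gene, the sign turned to give 0.038 for *Pde1c*, 0.0014 for *Pde4b*, -0.025 for *Prkar2b*, -0.040 for *Akap5* and 0.035 for *Akap6*. With an array left out, genes that turned sign ranged from -0.034 to 0.010 for *Adcy1*, -0.013 to 0.027 for *Adcy6*, -0.049 to 0.17 for *Pde1a*, -0.086 to 0.0028 for *Pde3b*, -0.051 to 0.038 for *Pde7b*, -0.011 to 0.046 for *Prkar2b*, -0.029 to 0.024 for *Pde1b*, -0.12 to 0.052 for *Gnal*, -0.0020 to 0.083 for *Rapgef3* and -0.044 to 0.0064 for *Akap6*. Genes that kept their sign but moved by more than 1.5 times, beside those given elsewhere, ranged from 0.048 to 0.11 for *Adcy2*, -0.057 to -0.016 for *Adcy3*, -0.14 to -0.020 for *Pde1c*, 0.038 to 0.10 for *Pde8b*, -0.065 to -0.021 for *Prkaca*, 0.035 to 0.084 for *Prkacb*, 0.0049 to 0.073 for *Akap5*, 0.0056 to 0.058 for *Akap8*, 0.011 to 0.14 for *Akap12*, 0.012 to 0.092 for *Ppp1r1a* and 0.024 to 0.089 for *Ppp1r1b*. Marker sums that turned sign ranged from -0.0034 to 0.085 for striatal neuron, -0.044 to 0.051 for microglia, -0.021 to 0.083 for endothelial and mural and -0.022 to 0.048 for meninges, and the mean of log2 values of the microglia markers was -0.011. With means of log2 values, the hippocampus (-0.14) and thalamus (0.13) markers both had adjusted p = 0.0397 (exact permutation test).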
